A study of Drosophila melanogaster with 3 samples.

Results

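The Rab genes of Drosophila melanogaster encode small GTPases that steer traffic between membrane compartments. They were taken here as the protein-coding genes whose whole symbol is Rab or RabX followed by a number, with or without letters after it. Of 13945 protein-coding genes on the 6 chromosome arms, 33 met this rule. A further 3 genes, Rab3-GEF, Rab3GAP1 and Rab3-GAP, begin with such a symbol but encode Rab regulators, and were counted with the regulators. Binding of Eip75B, a nuclear receptor whose gene responds to the moulting hormone ecdysone, was measured by ChIP-seq in 3 biological replicates of whole prepupae. The single fly line, Eip75B-MiMIC-GFP, carries an eGFP exon in an intron of the endogenous Eip75B gene, and chromatin was precipitated through the GFP. Males and females were pooled, the age within the stage is not known, and the sources used here do not say which Eip75B isoforms carry the tag. All animals carried the tag and belonged to 1 group, and whole animals do not separate tissues, so a peak may come from any of them. The labels name a possible control experiment, which was not analysed here. With 1 group, no comparison between conditions and no test over samples was possible.

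A Rab protein works as a switch. Bound to GTP it sits on a membrane and recruits effectors, which tether, move or fuse vesicles, and bound to GDP it is drawn off the membrane. Exchange factors load the GTP, GTPase-activating proteins end the active state, and a prenyl anchor added by Rab geranylgeranyl transferase holds the protein on the membrane. Around the onset of fly metamorphosis, larval tissues are taken apart by autophagy and the salivary glands release stored glue, and both processes depend on membrane traffic.

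Of the 33 Rab genes, 10 (30.3%, 95% exact interval 15.6% to 48.7%) had an optimal summit within 1 kb of an annotated start, against 23.6% of all protein-coding genes. The optimal list is the set of 7803 peaks that the authors kept after comparing replicates, and a summit is the point of highest signal in a peak. The 10 genes were Rab1, Rab5, Rab7, Rab8, Rab14, Rab26, Rab30, Rab35, Rab39 and Rab40. A summit inside the gene was found in 9 Rab genes (27.3%, interval 13.3% to 45.5%), against 15.2% of all genes. Rab11, Rab23 and Rab32 had summits in the gene only. The remaining 20 members had an optimal summit neither in the gene nor within 1 kb of a start. A summit of either kind was present at 13 members (39.4%), against 27.0% of all genes. The intervals cover counting error only, and the share of all genes lies inside the one for promoters and inside the one for gene bodies.

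The share depended on how strong a peak had to be. When the optimal list was cut to its 3901 strongest peaks, 4 Rab genes had a promoter summit, those of Rab5, Rab14, Rab30 and Rab39, a share of 12.1% against 14.0% of all genes. The share also varied with the replicate left out, when only optimal summits inside a top region of both others were counted. It was 18.2% of Rab genes without replicate 3, against 18.4% of all genes. Without replicate 1 it was 21.2% against 18.3%, and without replicate 2 it was 24.2% against 18.2%. The strongest promoter peak of a Rab gene had a median signal of 150 over the 10 bound members, against a median of 191 over the 3296 bound genes of the genome. The signal is the peak caller's value as deposited, is compared only within 1 list, and was 92.6 at the weakest optimal peak. In all, 17 optimal summits were counted for Rab genes, 13 at promoters and 4 in the gene only. Of these, 2 had a signal above 264, the upper quartile of the optimal list, and 5 were below its lower quartile of 119.

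The replicates were compared on top lists of equal length, the 7803 regions of each with the highest signal. A promoter summit was present at 9, 14 and 11 Rab genes in the top lists of replicates 1, 2 and 3, a mean of 34.3% ± 7.63 (SD, n = 3), against 24.9% ± 0.828 of all genes. Replicate 2 gave the highest number. In all 3 top lists, 8 Rab genes had a promoter summit, a share of 24.2% against 18.0% of all genes. That count lets the summit stand at different points in different replicates. Summit by summit, 7 of the 17 Rab summits (41.2%) fell inside regions of every top list, against 65.2% of all 7803 summits. The 8 genes were all among the 10 bound in the optimal list, and the other members, Rab26 and Rab40, had one in 1 and 2 top lists. Of the 23 members without an optimal promoter summit, 6 (26.1%) had one in at least 1 top list, against 11.2% of all such genes. The other 17 of the 23 had one in no top list. The sources used here give no read numbers, and the depth behind these ranks is unknown.

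**Figure D1:**
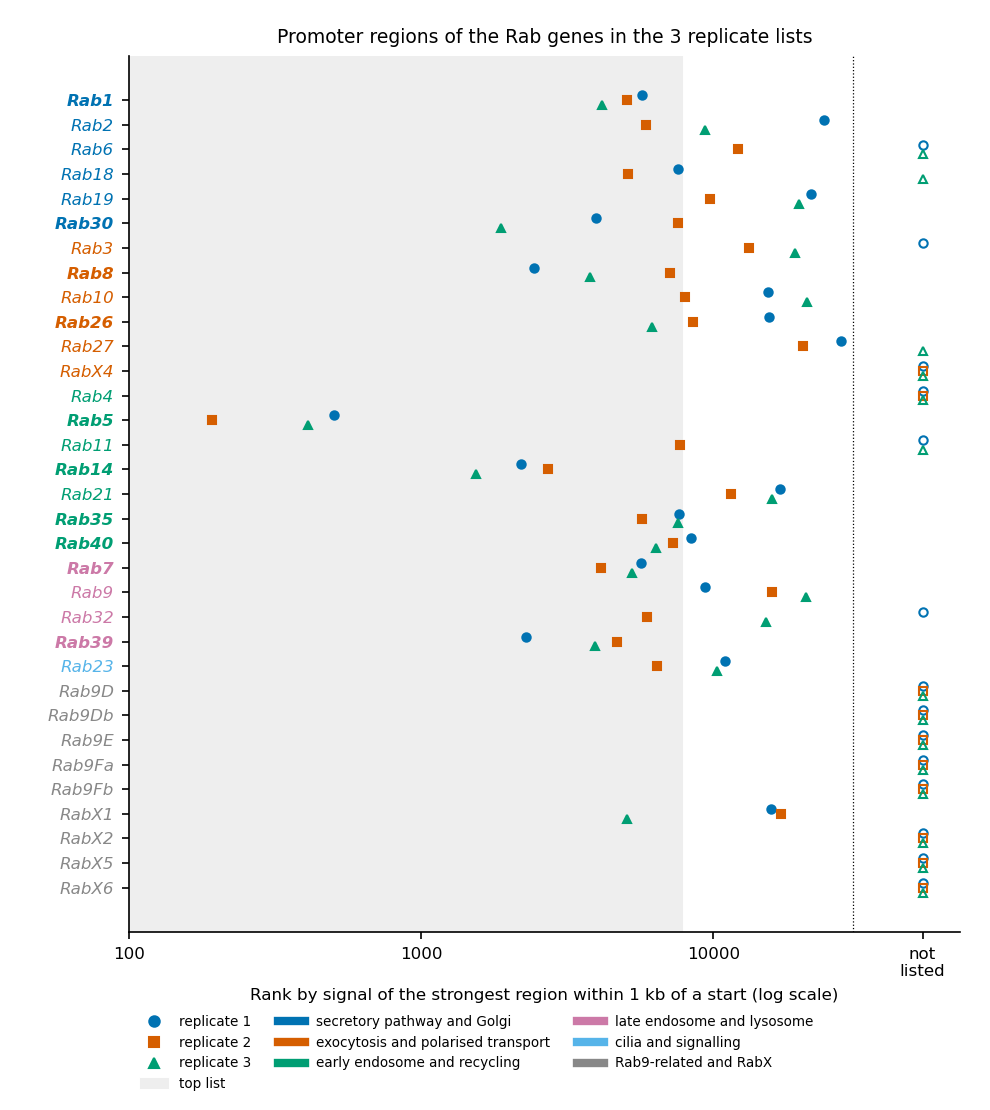
Each row is a Rab gene, grouped by role (colour), and each symbol gives the rank of its strongest region within 1 kb of a start in 1 replicate list of 30000 regions (log axis, with the top list shaded, the end of the list dotted and open symbols where no region is listed). Bold names have a promoter summit in the optimal list. Rab5 ranks between 192 and 502 in all 3 replicates, and the 6 genes Rab9D, Rab9Db, Rab9E, Rab9Fa, Rab9Fb and RabX2 are listed in none.

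Of 8 motifs searched at gene starts, the one found at the largest number of Rab genes was the DNA replication-related element (DRE), a core promoter sequence of fly housekeeping genes that is bound by the factor DREF. Its 8 bases are TATCGATA, which read the same on both strands, and each motif was searched on both strands from 250 bp before to 50 bp after every annotated start. The DRE was found at 11 of 33 Rab genes (33.3%), against 10.2% of all genes. Of the 10 Rab genes with a promoter summit 6 held the element (60.0%), against 13.6% of all 3296 genes with one. Of the 23 without a promoter summit 5 did (21.7%), against 9.10% of all genes without one. The other motifs were at 0 to 3 Rab genes each. The half-site of nuclear receptors, AGGTCA, was at 3 of 33 (9.09%), against 7.54% of all genes, and at 0 of the 10 bound Rab genes, against 8.59% of all bound genes. Its longer form TAGGTCA was at 1 (3.03%), against 1.72% of all genes, and the extended form of that at 0, against 0.208%. GAGAGAG was at 2 (6.06%), against 9.09%, and GGTCACACT, the M1BP motif, at 1 (3.03%), against 6.78%. The E-box CACGTG was at 1 (3.03%), against 5.34%, and TGACGTCA at 0, against 0.724%. This search was added after the data were seen. The DRE matches are shown because they are the sequence that most of the bound Rab promoters have in common. Each line gives 29 bases on the plus strand of dm6, with the element in capitals. The first 6 lines are Rab genes with a promoter summit and the last 4 are Rab genes without one. The match at Rab2 is counted but not printed.

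Rab7, chr3R:23992981-23993009: acgactgcacTATCGATAaccagtactga
Rab8, chr3L:19871079-19871107: cgccgtcgtcTATCGATAgcttatcgtac
Rab14, chr2L:14355054-14355082: gtgcgccctcTATCGATAgacacgattgt
Rab30, chr2L:7032636-7032664: tttttctcggTATCGATAgatcgacgttt
Rab35, chrX:20159867-20159895: atgtttatgcTATCGATAgtttaggatag
Rab40, chrX:12463112-12463140: agtttgcgcaTATCGATAagccatcgata
Rab6, chr2L:12109151-12109179: tctgccacgcTATCGATAaacgcatattt
Rab19, chr3L:8296988-8297016: taaaatggaaTATCGATAtatgagcttcg
Rab27, chrX:1477027-1477055: cgcgcagagcTATCGATAagtatcgcgag
RabX6, chr3L:690458-690486: aattatcggtTATCGATAgcgttcaaatg

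Rab35 and Rab19 held 2 matches each, of which the one nearest to a start is shown. All 11 nearest matches lay before the start, between 8 bp away at Rab35 and 78 bp away at Rab14. The distance from the element to the nearest optimal summit ranged from 2 bp at Rab8 to 703 bp at Rab35 among the 6 bound genes, with a median of 60.5 bp. At Rab8, Rab30, Rab40 and Rab7 it was 2, 45, 47 and 74 bp. At Rab14 and Rab35 the summit lay 660 and 703 bp away, outside the 50 bp searched around each summit. Several elements lay close to the start of another gene. The one at Rab14 was 18 bp from the start of l(2)34Fd, and that at Rab8 was 47 bp from the start of Usp32. Another gene's start lay within 1 kb at 9 of the 11 Rab genes with an element. Of all 5985 genes with such a neighbour 15.3% held the element, and of the 18 Rab genes with one 9 did. A match is a description of the letters and does not show that a factor binds there.

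The groups by role hold 1 to 9 genes each, and differences between them were not tested. Over all genes, 23.6% had a promoter summit. In the early endosome and recycling group, 4 of 7 genes had a promoter summit and Rab11 had summits in its intron. Rab5, which drives fusion of early endosomes, had the strongest peak of any Rab gene, with an optimal signal of 667 and rank 340. Its summit lay at 2363763 on 2L in an intron of Rab5 (FBgn0014010; 2359142 to 2365273, minus strand). It stood 259 bp before the nearest of the gene's 6 annotated starts. The signal there was 194 in replicate 1, 273 in replicate 2 and 204 in replicate 3, with ranks of 502, 192 and 412. It was therefore near the top of every list, and the nearest start of another gene, Axud1, was 1582 bp away.

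The 101 bases centred on this summit, chr2L:2363713-2363813 on the plus strand, are shown because they carry the strongest Rab peak. They held none of the 8 motifs searched.

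Rab5 summit: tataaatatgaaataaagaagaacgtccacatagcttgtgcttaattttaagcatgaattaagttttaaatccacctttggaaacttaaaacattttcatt

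Rab14, which acts in endosome and phagosome maturation, had 2 promoter summits in introns (FBgn0015791; 2L, 14355145 to 14358764, plus strand). The stronger, at 14355727, had an optimal signal of 262 and rank 1979, and the ranks were 2199, 2724 and 1544 in replicates 1, 2 and 3. It lay 582 bp after the first start. The weaker, at 14356843, had a signal of 107 and stood in the top lists of replicates 1 and 2, with rank 12102 in replicate 3. The stronger site was thus in every top list, and the weaker was listed in replicate 3 only below the top list.

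Rab35, which acts in endosomal recycling, had a summit in its 5' UTR at 20159177 on X (FBgn0031090; 20155766 to 20159872, minus strand), 695 bp after the start. The optimal signal was 123, and the ranks of 7658, 5706 and 7598 in the 3 replicates were near the end of the top lists in replicates 1 and 3. Rab40, whose mammalian relatives join cullin ubiquitin ligases, had a summit 60 bp before a start at 12463172 on X, outside the gene (FBgn0030391; 12459796 to 12463112, minus strand). Its signal was 104, and the region holding it reached the top list in replicate 3 only, with ranks of 8398, 8575 and 6387 in replicates 1, 2 and 3. Neither peak was among the 3901 strongest.

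Rab11, the main Rab of recycling endosomes, had no optimal promoter summit but 2 intron summits (FBgn0015790; 3R, 21111408 to 21116146, plus strand). They lay 1198 and 1773 bp after the only start, at 21112606 and 21113181, with optimal signals of 160 and 271. The stronger ranked 2642 in replicate 2 and 1163 in replicate 3, and the weaker ranked 3496 and 6025. In replicate 1, no region of the whole list of 30000 held either position. Both Rab11 peaks therefore rest on 2 replicates. Its promoter reached the top list in replicate 2 only, with rank 7699. The weaker had the only AGGTCA, the half-site of nuclear receptors, within 50 bp of a Rab summit. Its 101 bases, chr3R:21112556-21112656 on the plus strand, are given with that half-site in capitals.

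Rab11 intron summit: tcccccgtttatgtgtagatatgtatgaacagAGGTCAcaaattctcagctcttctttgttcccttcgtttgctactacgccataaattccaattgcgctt

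In the same group, Rab21, an early endosome Rab, had a region 24 bp from its start far below the optimal threshold, with rank 12251 in the pooled list. The pooled list is the authors' ranking of 30000 regions from all replicates together, and the optimal list is its 7803 strongest regions. Rab4, which acts in fast recycling, had no promoter region in the pooled list or in any replicate list.

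In the secretory and Golgi group, 2 of 6 genes, Rab1 and Rab30, had a promoter summit. Rab1, which is needed for transport from the endoplasmic reticulum to the Golgi, had a summit 59 bp before its single start, at 21269119 on 3R (FBgn0285937; 21266029 to 21269060, minus strand). The optimal signal was 144 and the rank 4646. Its signals of 42.1, 49.9 and 53.4 in replicates 1, 2 and 3 gave ranks of 5710, 5074 and 4146, a narrow range.

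Rab30, a Golgi Rab known from mammals, had 2 optimal summits before its start, but both lay nearer to the start of Caper, which is transcribed the other way (FBgn0031882; 2L, 7030493 to 7032606, minus strand). The summit at 7033527 lay 921 bp from the start of Rab30, inside an intron of Caper, with a signal of 181 and ranks of 3984, 7595 and 1883 in replicates 1, 2 and 3. The summit at 7032694 lay 88 bp from the start of Rab30 and 27 bp from that of Caper, with a signal of 98.4. It reached the top list in replicate 1 only. With each summit given to the gene with the nearest start, Rab30 would not count as bound.

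The other 4 genes of this group lacked an optimal summit. Rab2, which acts at the Golgi and in fusion with lysosomes, had a region 79 bp from its start just below the threshold, with rank 8605 in the pooled list and a signal of 84.2. That region lay nearer to the start of Mob4. The strongest promoter region of Rab2 ranked 5904 in replicate 2 but 23839 and 9375 in replicates 1 and 3. Rab19 had a region of rank 12818 in the pooled list. Rab6, a Golgi Rab, was listed at its promoter in replicate 2 only, with rank 12169. Rab18, which mammalian work ties to lipid droplets, had promoter summits in the top lists of replicates 1 and 2, at 72 and 879 bp from its start, but no promoter region in the pooled list.

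In the group of exocytosis and polarised transport, 2 of 6 genes had a promoter summit. Rab8, which directs vesicles from the Golgi to the plasma membrane, had a summit 16 bp before its upstream start, at 19871094 on 3L (FBgn0262518; 19867488 to 19871078, minus strand). The optimal signal was 157. The signals of 80.4, 25.8 and 56.8 in replicates 1, 2 and 3 gave ranks of 2431, 11313 and 3773, so replicate 2 stood below the other two and outside its top list. A weaker Rab8 summit lay in an intron 312 bp before the downstream start, with a signal of 104 and top-list regions in replicates 2 and 3. Rab26, which acts on secretory and synaptic vesicles, had the weakest promoter peak of the family, with a signal of 95.1 and rank 7573. It was in the top list of replicate 3 only, with ranks of 15510 and 8526 in replicates 1 and 2.

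The other 4 genes of that group had weaker promoter regions or none. Rab10, which in the fly follicle guides secretion of basement membrane, ranked 12482 in the pooled list at 108 bp from its start. Rab27, a Rab of secretory granules, ranked 15376 there, with a region nearer to the start of mei-38. Rab3, the Rab of synaptic vesicles, had a promoter region in the whole lists of replicates 2 and 3, with ranks of 13291 and 19037, and none in the pooled list. RabX4 had none in any list.

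In the late endosome and lysosome group, 2 of 4 genes had a promoter summit and Rab32 had one in an intron. Rab7, which controls fusion of late endosomes and autophagosomes with lysosomes, had a summit in its 5' UTR at 23993068 on 3R, 60 bp after a start (FBgn0015795; 23993008 to 23995452, plus strand). The optimal signal was 141, and the ranks were 5644 in replicate 1 and 5254 in replicate 3. In replicate 2, no region held this point, and the strongest promoter region had its summit at 23993281, 102 bp from a start, with rank 4131. All replicates thus had a top-list summit at the Rab7 promoter, but not at the same point.

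Rab39, a Rab of the endosome and lysosome system, had a summit 338 bp before its start, at 7734585 on X, with a signal of 190 (FBgn0029959; 7734923 to 7736756, plus strand). The ranks of 2278, 4696 and 3945 in replicates 1, 2 and 3 were all inside the top lists. This point lies in the 5' UTR of the divergent gene Pdp, 66 bp from its start, so the peak was nearer to Pdp than to Rab39. Rab32, which serves lysosome-related organelles such as eye pigment granules, had an intron summit 2188 bp from its nearest start, at 9183687 on 2R (FBgn0002567; 9177864 to 9186342, minus strand). That summit had a signal of 158 and ranks of 5347, 3097 and 6030 in replicates 1, 2 and 3. The promoter of Rab32 ranked 11099 in the pooled list. Rab9, a late endosome Rab, had a region 900 bp from its start with rank 12176 in the pooled list.

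Rab23, which limits Hedgehog signalling in the mouse and acts in planar polarity in the fly, had 1 intron summit 2292 bp after its start, at 5683142 on 3R (FBgn0037364; 5680054 to 5685434, minus strand). The signal was 172. The ranks were 3836 in replicate 1 and 4120 in replicate 3, and no region of replicate 2 held the point. Its promoter ranked 8740 in the pooled list, below the optimal threshold, and that region lay nearer to the start of plx.

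**Figure D2:**
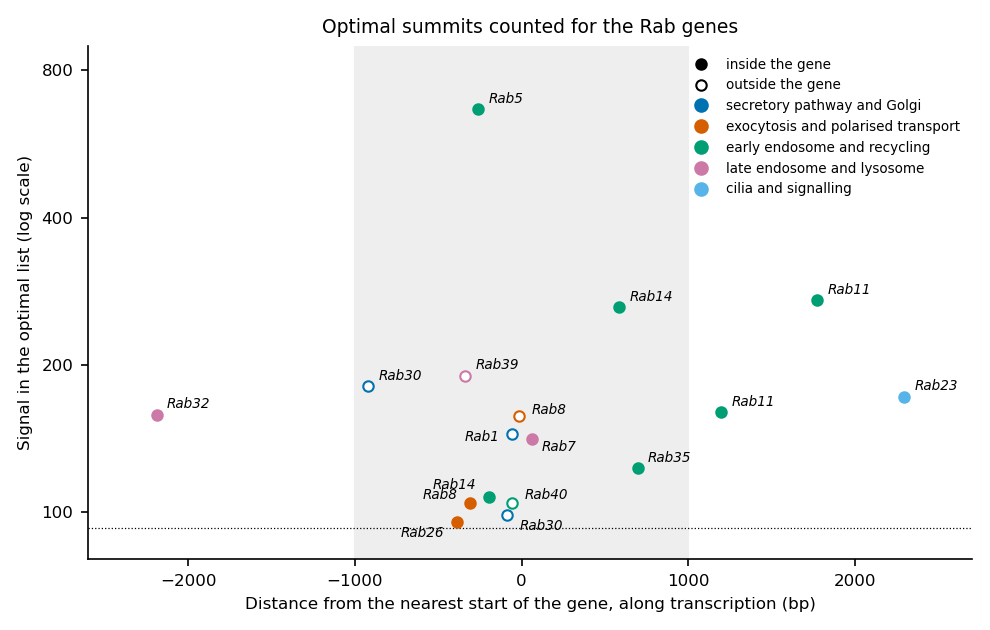
Each point is 1 of the 17 optimal summits counted for a Rab gene, placed by its signed distance from the gene's nearest start (x, in bp) and its deposited signal (y, log scale), coloured by role. The shaded band is the 1 kb promoter window and the dotted line is the weakest optimal peak at 92.6. Rab5 stands highest at 667, and the summits of Rab11, Rab23 and Rab32 fall outside the band.

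**Figure D3:**
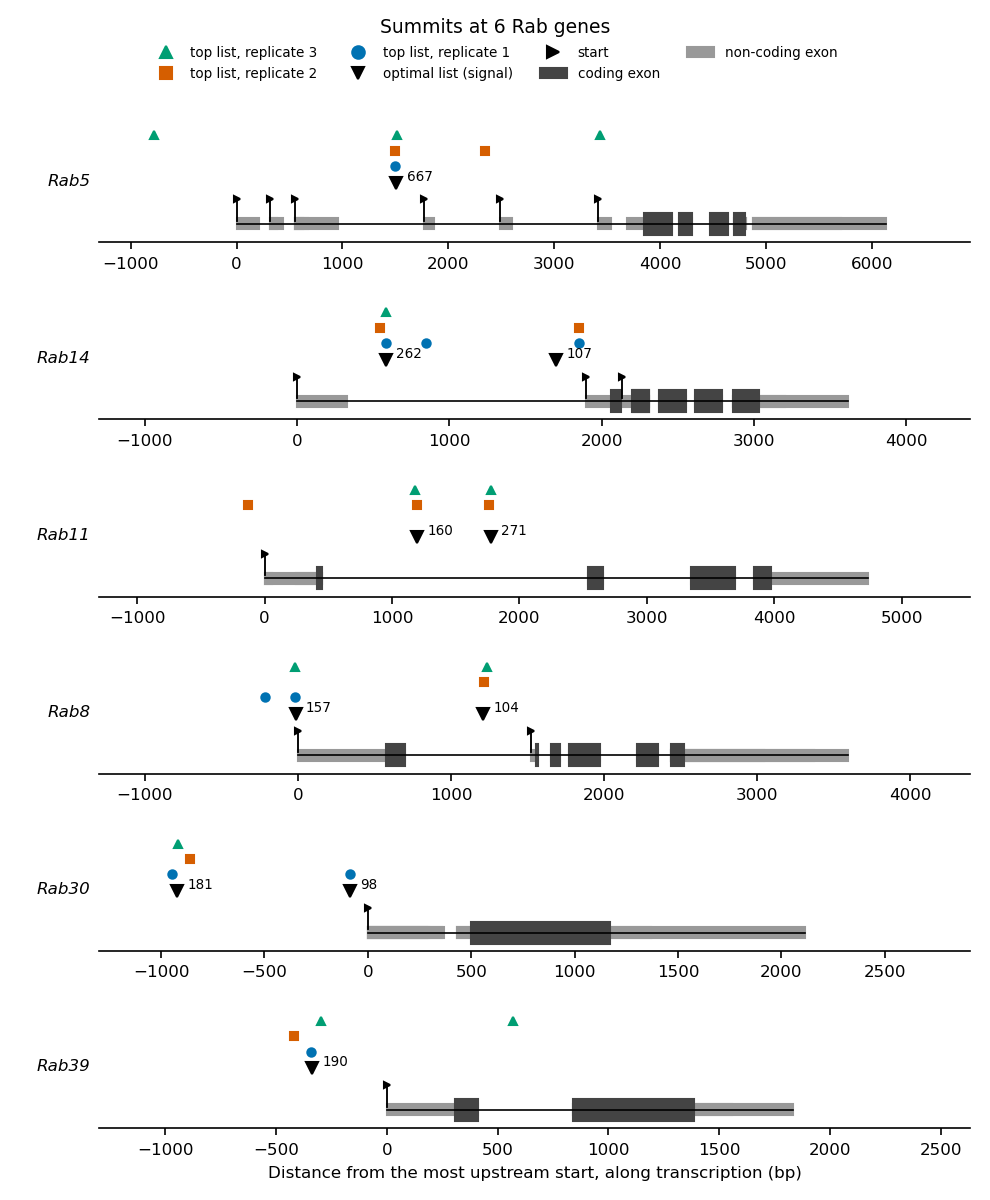
Maps of 6 Rab genes drawn from the most upstream start along transcription (x, in bp), with exons as boxes. Black triangles are optimal summits with their signal, and coloured symbols are summits of the replicates' top lists. The symbols of all 3 replicates stand together over the Rab5 peak of 667, and replicate 1 has none over the Rab11 intron.

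None of the 9 Rab9-related and RabX genes had an optimal summit at its promoter or in the gene, against 27.0% of all genes with one. Of these, 6 short genes on X, from Rab9D to Rab9Fb with RabX2, had no promoter region in any list. The sources used here do not say where reads that fit several copies were placed. Of the 31-base words in Rab9D, Rab9Db, Rab9E and Rab9Fa, 95.5%, 90.5%, 86.7% and 96.3% occurred elsewhere on the 6 arms as well. For RabX2 and Rab9Fb the share was 18.0% and 2.48%. In the other 27 Rab genes it was at most 1.14%. Over the gene together with 1 kb on either side of its start, the share was 46.9%, 55.3%, 55.5% and 57.4% in Rab9D, Rab9Db, Rab9E and Rab9Fa, 17.2% in RabX2 and 3.15% in Rab9Fb. The remaining words of each window did not occur elsewhere on the 6 arms. The part of the repeated sequence in the lack of peaks was not tested. The nearest optimal summit was between 2397 and 32730 bp from the starts of the 6 genes. RabX5 and RabX6 had no promoter region in any list. RabX1 ranked 11613 in the pooled list, and reached the top list in replicate 3 only.

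Bound Rab genes were longer and had more starts and closer neighbours than unbound ones. The median length was 3454 bp in the 10 with a promoter summit and 1518 bp in the 23 without, and over all genes it was 3930 bp with a summit and 1897 bp without. Of the 9 Rab genes with over 1 annotated start 6 were bound, against 43.1% of all such genes. Of the 24 with 1 start 4 were bound (16.7%), against 16.6% of all such genes. A gene with several starts has a wider promoter window in total, and the part of this in the counts was not tested. Another gene's start lay within 1 kb at 8 of the 10 bound Rab genes, and 44.4% of the 18 Rab genes with such a neighbour were bound, against 31.6% of all genes with one. Without such a neighbour, 2 of 15 Rab genes (13.3%) were bound, against 17.6% of all. The peak was nearest to the gene's own start at 8 of the 10 bound Rab genes, the exceptions being Rab30 and Rab39, and at 75.4% of all bound genes. By chromosome arm, 3 of 5 Rab genes were bound on 2L, against 21.6% of all genes there, and 0 of 5 on 2R, against 22.3%. On 3L and 3R 2 of 5 were bound, against 24.4% and 24.6%, and on X 3 of 13, against 25.5%.

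**Figure D4:**
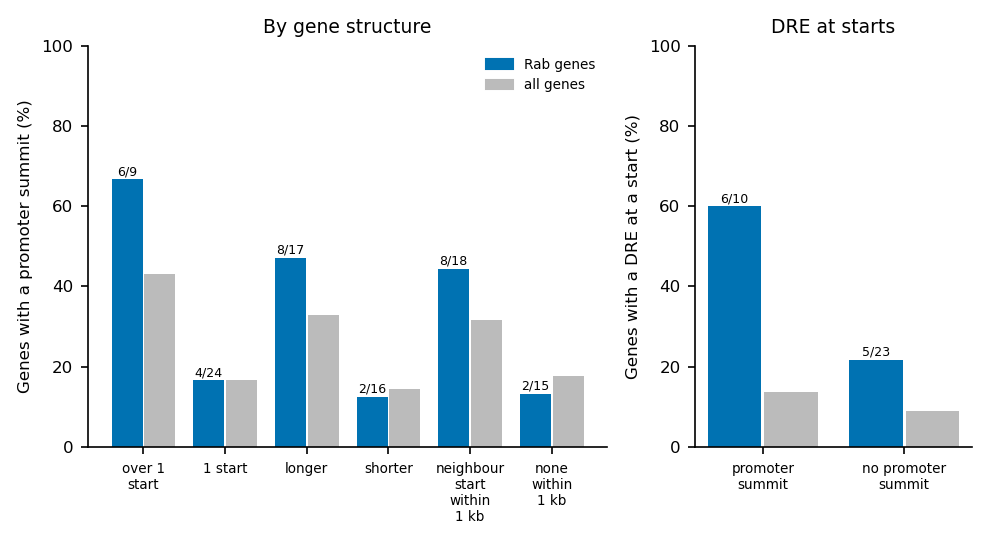
Left, share of Rab genes (blue) and of all protein-coding genes (grey) with a promoter summit in the optimal list, by number of starts, by length against the median of all genes, and by whether another gene starts within 1 kb. Right, share with the DRE at a start, with and without a promoter summit. Numbers over the blue bars are Rab genes counted. With over 1 start, 6 of 9 Rab genes were bound, and 6 of the 10 bound Rab genes held the DRE.

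Within 50 bp of the summits, 5 of 17 Rab summits held any of the 8 motifs. The values over all summits are given for each motif in turn, not for the 8 together. The DRE was found at 3 (17.6%), those of Rab8, Rab30 and Rab40, against 0.871% of all 7803 summits and 1.84% of the 3311 summits within 1 kb of a start. The half-site AGGTCA was found at 1, in the Rab11 intron, against 2.51% of all summits. GAGAGAG was found at 1, in Rab35, against 2.14%. The E75/Hr3 core TAGGTCA, which contains AGGTCA, was found at 0, against 0.743% of all summits. The extended form of that core, which contains it, was also found at 0, against 0.179%. GGTCACACT (M1BP), CACGTG (E-box) and TGACGTCA (CRE) were found at 0 as well, against 39, 58 and 12 of the 7803 summits. All were searched on both strands, and GGTCACACT can overlap AGGTCA by 5 bases. The absence of these letters from the windows shows nothing about the factors.

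The genes that load, switch and read Rab proteins were bound at shares on both sides of the Rab share of 30.3%. Of 4 genes for membrane extraction and prenylation, 3 had a promoter summit. They were RabGGTb with a signal of 289, RabGGTa with 227 and Rep with 209, the last encoding the escort protein that presents Rabs for prenylation. The peak at RabGGTb lay 730 bp from its start and 38 bp from that of Sbat. Gdi, which extracts GDP-bound Rabs from membranes, had none. Of 21 exchange factor genes, 5 (23.8%) were bound, against 23.6% of all genes. The highest signals were 795 at spri, whose mammalian relatives are Rab5 exchange factors, 395 at Mon1, whose product activates Rab7, and 164 at Rich. Crag and Rab3-GEF followed with 95.5 and 99.7, and the Rab5 exchange factor gene Rabex-5 was without.

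Of the 19 symbols listed for GTPase-activating proteins, 8 matched no gene in the annotation, and the share covers the other 11. Of these 11 genes 4 (36.4%) were bound, wkd with a signal of 415, sky with 257, RN-tre with 189 and plx with 148. The RN-tre peak lay nearer to the start of mam, at 187 bp. Of 32 effector genes 7 (21.9%) were bound, led by Rbsn-5, the fly rabenosyn that acts with Rab5, with a signal of 629. Rip11, which binds Rab11, had 379, and btsz had 154. The 68 genes of these lists together had a share of 27.9% (95% exact interval 17.7% to 40.1%), against 23.6% of all genes. Their mean share over the top lists was 32.8% ± 0.849 (SD, n = 3), against 24.9% ± 0.828 of all genes. Rab5, spri and Rbsn-5 ranked 340, 216 and 387 in the optimal list of 7803.

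Among other small GTPase families, relatives of the Rabs, the Arf family acts in vesicle budding and the Ras family in signalling. With 10 of 33 bound, the Rab genes had a share of 30.3%, against 5 of 12 Arf genes (41.7%, 95% exact interval 15.2% to 72.3%) and 5 of 10 Ras genes (interval 18.7% to 81.3%). In the replicates' top lists the mean share was 34.3% ± 7.63 for Rab genes, against 44.4% ± 12.7 for Arf genes and 60.0% ± 10 for Ras genes (SD, n = 3 each). The Rab share was below the Ras share in each replicate, and it equalled the Arf share in replicate 3 and was below it in replicates 1 and 2. The exact intervals overlap, and no test was made. Of all protein-coding genes 23.6% were bound, and their mean share over the top lists was 24.9% ± 0.828. The Arf family was led by the Golgi gene Arl1 with a signal of 596, and the Ras family by Rheb, Rala and Rap1 with 195, 175 and 170. Over 1 start was annotated in 9 of 33 Rab genes, against 3 of 12 Arf genes and 5 of 10 Ras genes, and the part of this in the shares was not tested.

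**Figure D5:**
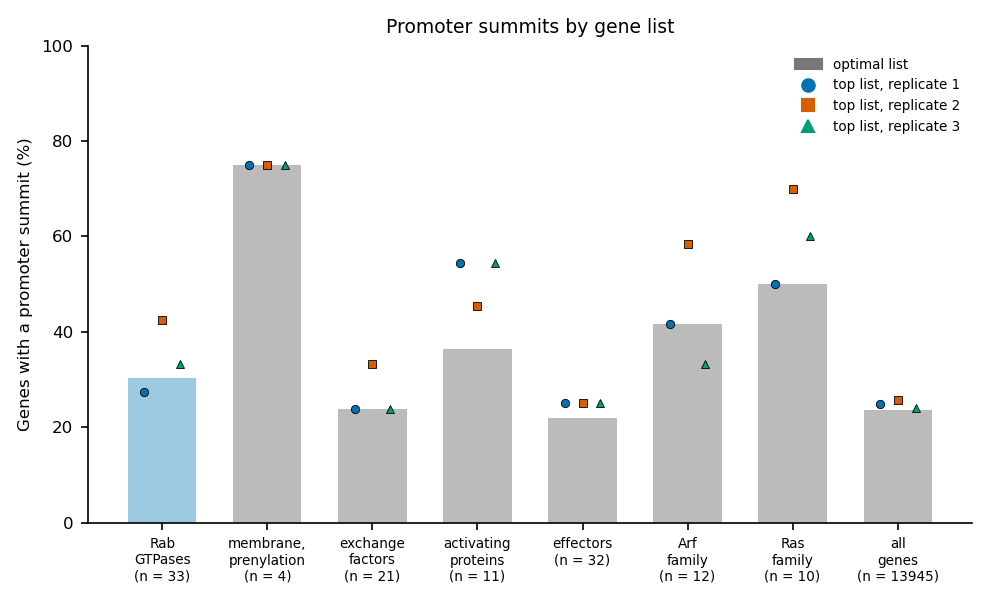
Bars give the share of genes with a promoter summit in the optimal list for Rab genes (blue), for their regulators and effectors, for the Arf and Ras families and for all protein-coding genes, with the number of genes under each name. Symbols give the same share in the top list of each replicate. The Rab bar stands at 30.3% and that of all genes at 23.6%.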

How the data were processed

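Peak lists from ChIP-seq of eGFP-tagged Eip75B were used, 1 for each of 3 replicates, 1 pooled and 1 of optimal peaks after IDR (a comparison of ranks between replicates), all on dm6. Per the labels, chromatin was sonicated to 200 to 800 bp. The signal is the peak caller's value as deposited by the authors. The summit offset was also deposited, and the summit is the region start plus this offset, printed 1-based. Not given in the sources used here were the aligner, the peak caller and the threshold of the IDR step. The dm3 lists were not used.

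Genes and starts came from Ensembl release 115, and sequence from the Release 6 assembly, whose arms held all deposited regions. A promoter summit lies within 1 kb of any annotated start. Replicate lists of 30000 regions were cut to the 7803 of highest signal. The search was tested on planted summits. Python 3.11.15, NumPy 2.4.6 and SciPy 1.17.1 were used. Shares have exact Clopper-Pearson intervals at 95%. Of 108 list symbols, 92 matched directly, 8 through synonyms and 8, all of GTPase-activating proteins, were unmatched. The members and lists were chosen with earlier results of these data known. By the naming rule every Rab gene is accounted for, by role, and up to 3 genes with the highest signal lead each other list. Others there were named after their values were seen. The start-window motif search, the repeated-word search and the distances to the nearest summit were added after the data were examined. One of the listed gene families is not reported here.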

Additional observations from a re-analysis of the deposited data

How the results depend on the processing

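No paired analysis was possible because the series has 1 group. Of 32 alternatives, 17 left a value within 1.5 times (or 1 SD) of the reported one. Keeping only the 3901 strongest optimal peaks left 4 Rab genes with a promoter summit (14.0% of all genes), 4 with a body summit (9.80%) and 6 summits, against 10, 9 and 17. With top lists of that length, 2 Rab genes (6.06%) had a promoter summit in all 3 replicates, below the 10.6% of all genes, and the mean share was 10.1%, below the 14.9% of all genes. With the whole replicate lists the values were 17 and 61.6%, against 35.3% and 45.4% of all genes. A window of 500 bp gave 5 genes in all 3 top lists (15.2%, against 14.8% of all genes). One of 2 kb gave 13 (39.4%, against 23.3%) and a mean share of 49.5%, against 30.8%. With optimal summits kept only where both remaining replicates had a top region, leaving out each replicate gave 6 to 8 genes with a promoter summit, 4 to 6 with a body summit and 8 to 10 summits. All genes had shares of 18.2% to 18.4% for promoters and 12.4% to 12.6% for bodies. Without replicate 3 the Rab shares were 18.2% for promoters, against 18.4% of all genes, and 12.1% for bodies, against 12.4%. Without replicate 1 they were 21.2%, against 18.3%, and 18.2%, against 12.6%. Without replicate 2 they were 24.2%, against 18.2%, and 18.2%, against 12.6%. By this construction the excess over all genes was gone only without replicate 3. Without replicate 3, Rab7, Rab8, Rab26 and Rab40 lost their promoter call, without replicate 1 Rab7, Rab26 and Rab40 did, and without replicate 2 Rab26 and Rab40 did. This construction removes peaks whichever replicate is left out. Rab genes with a promoter summit in both remaining top lists numbered 8 to 9 (24.2% to 27.3%, against 20.0% to 20.5% of all genes). The mean share was 30.3% to 37.9%, against 24.5% to 25.3% of all genes. With unknown depth, a region missing from a list does not show that a site was unbound.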

Other observations

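Several Rab genes without a promoter summit of their own had an optimal summit of another gene within 5 kb of their start. Over the 23 without one, the median distance to the nearest optimal summit was 6092 bp, against 10096 bp over all such genes. Rab3, Rab9Db, Rab10, Rab27 and Rab32 also had one within 5 kb and are not described here. Rab23 shares a divergent promoter with plx, which encodes a GTPase-activating protein for Rabs. The optimal summit of plx, with a signal of 148, lay 657 bp from the start of plx and 1078 bp from that of Rab23, just outside the promoter window. The nearest optimal summit to Rab9D, 4435 bp away, was that of the exchange factor gene spri, with a signal of 795. RabX5 stands next to the ribosomal protein gene RpL23A, whose summit, with a signal of 366, lay 1358 bp from the start of RabX5 and 96 bp from that of RpL23A. The start of Rab4 lay 4842 bp from a summit of rank 129 at POSH, a summit 112 bp from the start of POSH. With a promoter window of 2 kb, Rab11, Rab23, Rab27, Rab32 and RabX5 also counted as bound, which made 15 Rab genes, against 29.2% of all genes.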
